A study of Homo sapiens with 6 samples.

Results

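The 6 genes described here encode secreted proteins of the extracellular matrix, or an enzyme that crosslinks it, and were measured in Jurkat cells: THBS1, LOXL2, SPARC, LAMB1, COL1A1 and TNN. They were picked by symbol, chosen from earlier values of this same contrast, out of the 59248 symbols of the deposited table, so their own differences are given as descriptions without a test. All 6 were found, and all 6 were among the 21055 genes that passed the expression filter. TNN passed it through the overexpression libraries, since only 1 vector library reached the required level.

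Jurkat is an established human T-cell leukemia line. The study overexpressed an isoform of PDCD1, the gene of the inhibitory receptor PD-1, whose genotype label carries a superscript 28 (PDCD1-28 below), in 3 libraries, and cells carrying the vector gave 3 more. The growth protocol names the cells of both groups Jurkat KO-1, a term that the labels do not explain. The promoter of the vector, the number of clones and whether replicates came from separate cultures are not given in the sources used here, so the p-values rest on library-to-library spread that could be technical alone.

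The matrix proteins form the scaffold outside cells. Fibrillar collagens give it strength, laminins build the sheet-like basement membrane, lysyl oxidases crosslink the fibres, and matricellular proteins such as thrombospondins, SPARC and tenascins act mainly on how cells attach to and signal from the scaffold. Fibroblasts, endothelial cells and platelets are better known sources of these proteins than lymphocytes, although T cells bind them through integrins, CD47 and other receptors.

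The deposited values are estimated counts per gene, with 59911578 to 84220970 in total per library. A value of 1 was held by more genes than a value of 3 or 4 (2716 to 3651 genes per library). Yet a value of 4 was held by more genes than a value of 3 in each library (1069 to 1154 against 946 to 1031 genes), as if 1 read pair added about 4. For this reason the floor was set at 3 read pairs, or 12 estimated counts per library. CPM below is the usual scaling of counts to a common library total, here with library sizes adjusted by TMM, which balances the bulk of the genes between libraries. Vector replicate 2 stood apart from the other vector libraries on the second principal component, which held 9.77% of the variance against 79.8% for the first, and results that move without it are given both ways. PDCD1 held 945, 1059 and 807 estimated counts in overexpression and 14, 18 and 15 in vector, the direction that the labels give. Counts per gene symbol do not show which isoform was expressed.

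The promoter windows of 2 genes are shown, those with the largest difference in either direction among the 6, because they differ in base composition. Each holds the 250 bases before the RefSeq start site (GRCh38.p14, plus strand for both, 5′ to 3′), and capitals mark CpG dinucleotides, the sites of DNA methylation in promoters. The THBS1 window lies at chr15:39580829-39581078 and the TNN window at chr1:175067583-175067832.

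THBS1: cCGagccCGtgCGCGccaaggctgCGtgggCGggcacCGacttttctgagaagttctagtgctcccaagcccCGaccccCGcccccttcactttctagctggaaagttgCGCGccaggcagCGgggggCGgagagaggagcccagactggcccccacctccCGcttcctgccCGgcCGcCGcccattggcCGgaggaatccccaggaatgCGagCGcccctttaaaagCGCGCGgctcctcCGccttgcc

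TNN: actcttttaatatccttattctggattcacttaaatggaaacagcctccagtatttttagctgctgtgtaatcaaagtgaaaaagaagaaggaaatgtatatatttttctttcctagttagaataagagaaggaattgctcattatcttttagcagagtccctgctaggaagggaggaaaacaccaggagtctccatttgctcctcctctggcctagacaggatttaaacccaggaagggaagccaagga

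The THBS1 window held 24 CpG and the TNN window 0, where the median of 35116 RefSeq promoter windows of this length was 11. At most 24 CpG were found in 78.4% of these windows, and 0 in 6.06%. GC content was 69.6% for THBS1 and 39.2% for TNN. Of the other members, SPARC had 7 CpG and LAMB1 28 (4 of the 6 members had an entry).

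A set of 5 short motifs was searched on both strands. The GC box GGGCGG was found 4 times in the window of THBS1 and 4 times in that of LAMB1, and not in those of SPARC and TNN; 42.6% of all windows hold it. One of the THBS1 matches, from -72 to -67 relative to the start site, lies directly beside a reverse-strand CCAAT box from -66 to -62, a motif held by 32.0% of windows. The TATA box TATAAA (10.7% of windows), the AP-1 site TGANTCA (6.57%) and the E-box CACGTG (6.34%) were not found in the 4 windows. Within LAMB1, 2 of the GC box matches overlap each other. The deposited data hold no measurement of methylation or factor binding at these windows.

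THBS1, LOXL2 and COL1A1 were lower in overexpression, and TNN, SPARC and LAMB1 were higher. The differences ran from 9.06-fold lower for THBS1 to 35.7-fold higher for TNN. The size of the TNN difference is uncertain, since 2 of its 3 vector libraries lay under the floor of 12. The group ranges were apart for each of the 6, and all 6 passed the edgeR threshold (adjusted p of at most 0.05), as did 46.1% of all genes tested; 58.7% of genes tested had groups that did not overlap. Because the genes were picked from this contrast, nothing is read from these counts. Fewer cells that express a gene and less of its RNA per cell cannot be told apart in bulk libraries.

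**Figure D1:**
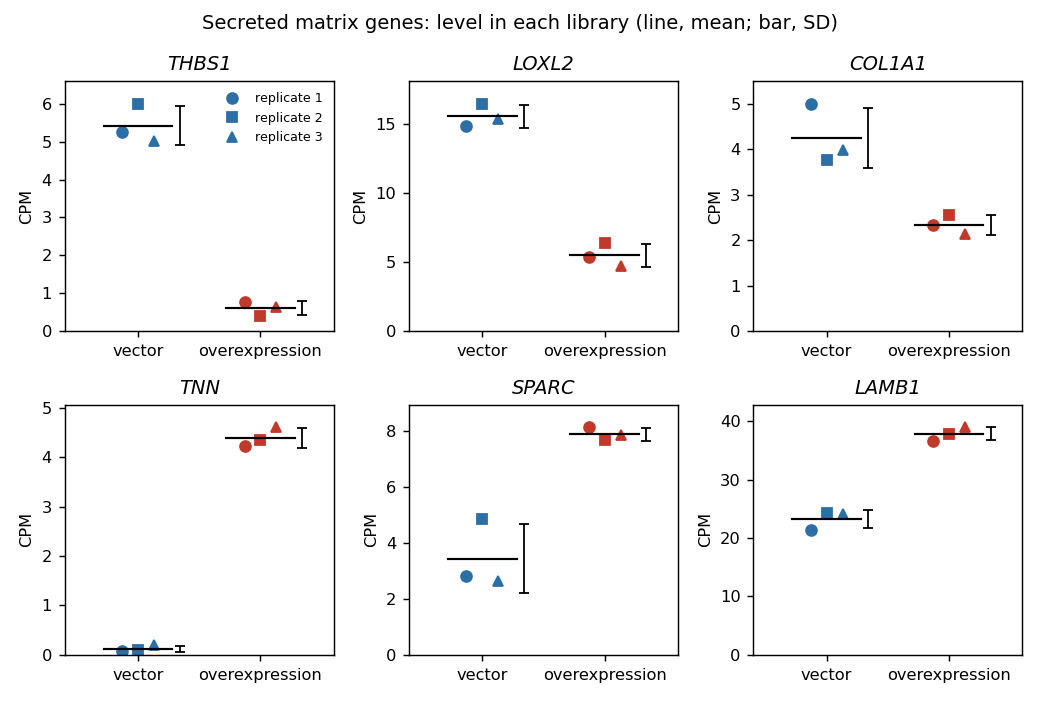
Level of each of the 6 matrix genes in CPM (vertical axes, starting at 0) in the 3 vector (blue) and 3 overexpression (red) libraries, with marker shape for the replicate number, a line for the mean and a bar for the SD beside it. THBS1, LOXL2 and COL1A1 lie lower in overexpression and TNN, SPARC and LAMB1 higher, and the vector library of replicate 2 lies above the other 2 vector libraries for SPARC.

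THBS1 encodes thrombospondin-1, a matricellular glycoprotein that binds CD47 and CD36 and can activate latent TGF-beta. It lies on chromosome 15 (39581079 to 39599466, plus strand, GRCh38, ENSG00000137801.10). With overexpression it held 50, 30 and 40 estimated counts, against 304, 484 and 340 with vector. All 3 overexpression libraries lay far under the lowest vector library: the vector library nearest to them was still 6.53 times the highest overexpression library in CPM, and the most distant pair differed 14.9-fold. The mean was 0.600 ± 0.185 CPM in overexpression and 5.42 ± 0.510 CPM in vector (SD, n = 3 each), with a fitted log2 fold change of -3.18 ± 0.26 (SE).

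The other thrombospondins did not share one pattern. THBS4 fell from 1.02 ± 0.199 to 0.274 ± 0.104 CPM (SD, n = 3; edgeR adjusted p = 0.00442), with 1 overexpression library under the floor. THBS3 held 761, 787 and 640 estimated counts in overexpression and 531, 690 and 653 in vector, and did not pass (log2 fold change 0.24 ± 0.12, SE; edgeR adjusted p = 0.139). COMP was at 0 in all 6 libraries, which allows up to 12 estimated counts per library, and THBS2 reached 17 in 1 vector library at most. Relatives of each member were read out of the matrix lists after their values had been seen.

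LOXL2 encodes a secreted lysyl oxidase that starts crosslinks between collagen and elastin chains. It lies on chromosome 8 (23297189 to 23425328, minus strand, ENSG00000134013.15). Its levels were 5.33, 6.39 and 4.74 CPM in overexpression and 14.8, 16.4 and 15.3 CPM in vector. Both groups were tight, with a coefficient of variation of 15.3% in overexpression and 5.36% in vector, and the fitted log2 fold change was -1.50 ± 0.14 (SE), or 2.83-fold lower.

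Within the lysyl oxidase family the genes differed in direction. LOX, the founding member, fell with a log2 fold change of -2.48 ± 0.52 (SE; edgeR adjusted p = 0.00523), or -3.22 without overexpression replicate 2, the library with the highest LOX count of its group (31 against 13 and 5). LOXL1, which acts mainly on elastin, rose with a log2 fold change of 1.08 ± 0.25 (edgeR adjusted p = 0.00867). LOXL3 and LOXL4 did not pass, at -0.34 ± 0.23 and -0.60 ± 0.46 (SE).

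COL1A1 encodes the alpha 1 chain of type I collagen, the main fibre of bone, skin and tendon. It lies on chromosome 17 (50183289 to 50201632, minus strand, ENSG00000108821.13). With overexpression it held 151, 190 and 136 estimated counts, against 290, 303 and 270 with vector. The lowest vector library was 1.47 times the highest overexpression library in CPM, the closest approach of the groups among the 6 genes. The means were 2.34 ± 0.213 and 4.25 ± 0.662 CPM (SD, n = 3 each), with a fitted log2 fold change of -0.86 ± 0.19 (SE). COL1A2, the gene of the alpha 2 chain with which this chain normally assembles, was at 0 in all 6 libraries, and COL3A1 reached 4 estimated counts at most.

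TNN encodes tenascin-W, a matricellular protein found around developing bone and in tumour stroma. It lies on chromosome 1 (175067858 to 175148066, plus strand, ENSG00000120332.15). With overexpression it held 274, 323 and 294 estimated counts, against 4, 8 and 13 with vector. The overexpression libraries were close together, with a coefficient of variation of 4.42%, while 2 of the 3 vector libraries lay under the floor of 12. The fitted log2 fold change was 5.16 ± 0.34 (SE), and its size is less certain than its SE because of the low vector values. In CPM the means were 4.39 ± 0.194 and 0.120 ± 0.0642 (SD, n = 3 each). TNC, the best known tenascin, held at most 4 estimated counts and TNR, a tenascin of the nervous system, at most 8 in any library. TNXB, also of this family, did not pass (log2 fold change -0.35 ± 0.21, SE; edgeR adjusted p = 0.213).

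SPARC encodes osteonectin, a collagen-binding protein that regulates fibril assembly. It lies on chromosome 5 (151661096 to 151687165, minus strand, ENSG00000113140.10). Its levels were 8.12, 7.66 and 7.85 CPM in overexpression and 2.83, 4.86 and 2.63 CPM in vector. The overexpression libraries agree within a coefficient of variation of 2.92%, whereas vector replicate 2 lay well above the other vector libraries and brought the coefficient there to 35.8%. The fitted log2 fold change was 1.19 ± 0.24 (SE), and 1.52 without vector replicate 2. CLMAT3, an antisense gene that overlaps SPARC, held 37, 32 and 29 estimated counts in overexpression and 14, 12 and 0 in vector. Without the strand setting, reads of the 2 genes cannot be told apart. The same limit holds where FSIP1 overlaps THBS1 and where DLD overlaps LAMB1, both on the opposite strand.

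Relatives of SPARC with the same kind of calcium-binding domain were mixed. SPOCK1 and SPOCK2, which encode testican proteoglycans, rose with log2 fold changes of 2.61 ± 0.45 and 0.81 ± 0.17 (SE; edgeR adjusted p = 0.00194 and 0.0048), and SPOCK1 was at 3.22 without vector replicate 2. The vector libraries held 12, 33 and 8 estimated counts of SPOCK1, in part at or under the floor, so the size of its difference is uncertain. SMOC1 held 19, 16 and 13 estimated counts in overexpression and 0 in each vector library, at least 1.33-fold higher when set against the per-library floor (edgeR adjusted p = 0.00334). With all values divided by 4, SMOC1 did not reach the expression filter and was not tested, and 5 matricellular genes rose. FSTL1 did not pass (log2 fold change -0.15 ± 0.12, SE; edgeR adjusted p = 0.362). SMOC2 and SPOCK3 were at 0 throughout, and SPARCL1 reached 36 estimated counts in 1 vector library.

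LAMB1 encodes the beta 1 chain of laminins, which are trimers of an alpha, a beta and a gamma chain. It lies on chromosome 7 (107923799 to 108003255, minus strand, ENSG00000091136.13). Its levels were 36.7, 37.8 and 38.9 CPM in overexpression and 21.4, 24.2 and 24.1 CPM in vector. All 3 overexpression libraries lay above the vector libraries, and the difference, 1.63-fold, was the smallest of the 6, with a fitted log2 fold change of 0.70 ± 0.07 (SE). DLD, on the opposite strand, overlaps the end of the gene in GENCODE 29; it held 7350 to 9603 estimated counts and did not pass (log2 fold change -0.09 ± 0.05, SE; edgeR adjusted p = 0.197).

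Few partner chains of LAMB1 were detected. LAMC1, the gamma chain of most laminins, held 12 estimated counts in vector replicate 1 and 0 in the other 5 libraries, and LAMC3 held 44 to 90. Among the alpha chains LAMA1 was at 0 throughout, LAMA2, LAMA3 and LAMA4 held at most 52 in any library, and LAMA5 held 22 to 57 in overexpression and 95 to 111 in vector. LAMB1 itself held 1243 to 2815.

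Levels can be compared between the genes only per length. Divided by the longest coding transcript of GENCODE 29 (3549 bases for LOXL2 to 7775 for THBS1), LOXL2 led in vector with 4.38 ± 0.234 CPM per kb, followed by LAMB1 with 4.03 ± 0.271 (SD, n = 3). With this length the vector ranges of LOXL2 and LAMB1 overlapped, as did those of SPARC and THBS1 (0.929 ± 0.333 and 0.698 ± 0.0656 CPM per kb). The ranges of THBS1 and COL1A1 also overlapped (0.632 ± 0.0984 for the latter). Whether such neighbours in the order are apart depends on the length used, as given below. TNN was last with 0.0240 ± 0.0128 CPM per kb.

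By the same length, the order in overexpression was LAMB1, SPARC, LOXL2, TNN, COL1A1 and THBS1, and no 2 neighbours in it overlapped. Their means in that order were 6.55, 2.13, 1.55, 0.876, 0.347 and 0.0771 CPM per kb. TNN thus moved from the last to the fourth place and THBS1 from the fourth to the last. With the median length of coding transcripts in place of the longest, SPARC came before LAMB1 in overexpression and all other places were the same. The ranges of SPARC and LAMB1 then overlapped (13.3 to 14.1 and 13.1 to 13.9 CPM per kb). In vector, LOXL2 (19.6 to 21.8) then lay apart from LAMB1 (7.64 to 8.63), whose range overlapped that of SPARC (4.57 to 8.43).

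**Figure D2:**
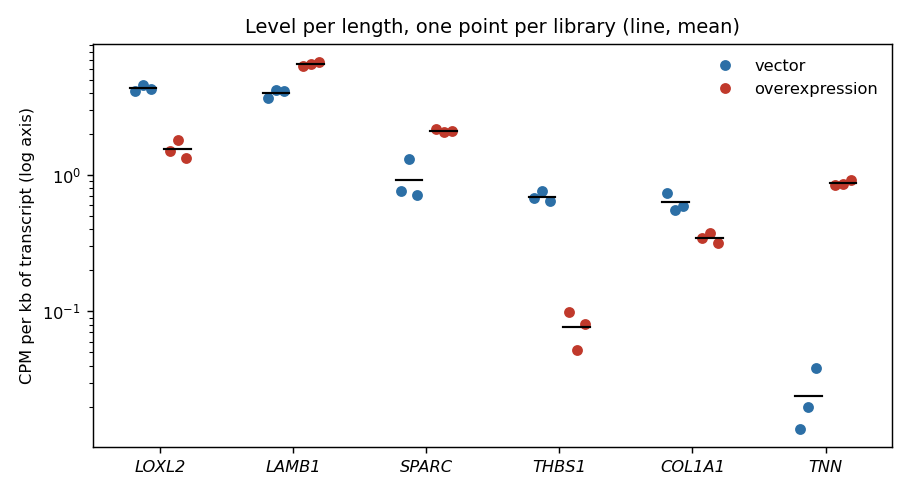
Level in CPM per kb of the longest coding transcript (vertical log axis) for the 6 genes, ordered by their vector mean, with 1 point per library, blue for vector and red for overexpression, and a line for the mean. The order changes between the groups: TNN is lowest in vector at 0.0240 and THBS1 lowest in overexpression at 0.0771 CPM per kb.

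Beyond the 6 genes, 181 further genes of the matrix and its receptors were sorted into 6 lists by function. Of 115 that were tested, 31 rose and 27 fell, or 50.4%, close to the 46.1% of all genes tested, of which 22.6% were higher and 23.4% lower. Their median log2 fold change was 0.04 against 0.02 over all genes tested. The share that passed differed by list. It was 43.5% for matricellular genes, 55.6% for fibrillar and associated collagens and 45.8% for collagen maturation. For basement membrane genes it was 38.5%, for receptors 70.4% and for proteases and inhibitors 42.1%. The lists were compiled with earlier results of these data known, so their counts are descriptions.

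Of 23 matricellular genes tested, 7 rose and 3 fell (median log2 fold change 0.23). Besides SPOCK1 and SMOC1, MATN4, which encodes a matrilin, rose from 0.189 ± 0.0710 to 3.49 ± 0.424 CPM (SD, n = 3; edgeR adjusted p = 3.04e-05). Its vector libraries held 11, 21 and 8 estimated counts, in part under the floor of 12, so the size of this difference is uncertain. EFEMP1, the gene of fibulin-3, fell from 68.96 ± 4.22 to 4.09 ± 0.220 CPM (edgeR adjusted p = 8.69e-08), a 16.8-fold difference larger than that of THBS1. FBLN2, another fibulin gene, fell from 70.7 ± 2.83 to 22.3 ± 2.36 CPM (edgeR adjusted p = 5.4e-06).

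Of 9 fibrillar and associated collagen genes tested, 1 rose and 4 fell (median -0.54), and 4 of the 19 listed were at 0 in all libraries. Like COL1A1, the microfibril collagen genes COL6A1 and COL6A3 and the fibril-associated COL12A1 were lower, with log2 fold changes of -0.96 ± 0.27, -2.67 ± 0.46 and -3.45 ± 0.79 (SE; edgeR adjusted p = 0.0191, 0.00202 and 0.00792). COL16A1 rose by 1.79 ± 0.34 (edgeR adjusted p = 0.00317). COL6A3 (5, 15 and 7 estimated counts) and COL12A1 (0, 16 and 4) each had 2 of 3 overexpression libraries under the floor, so the size of these differences is uncertain. With all values divided by 4, COL6A3 did not reach the expression filter and was not tested, and 3 genes of the list fell. Without overexpression replicate 3, COL6A1 did not pass (-0.78; edgeR adjusted p = 0.0661) and the number of falls was 2. Without overexpression replicate 2, COL12A1 was at -5.01, and without vector replicate 2 the number of rises was 3.

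Of 24 genes for the maturation and crosslinking of collagen tested, 7 rose and 4 fell (median 0.09). FKBP10 and SERPINH1, chaperones of procollagen in the endoplasmic reticulum, rose from 0.393 ± 0.208 to 4.38 ± 0.636 CPM and from 9.21 ± 2.10 to 21.6 ± 0.655 CPM (SD, n = 3; edgeR adjusted p = 0.000196 and 0.000585). CRTAP, part of the prolyl 3-hydroxylase complex, rose by 0.41 ± 0.06 on the log2 scale, while PPIB, the cyclophilin of the same complex, fell by 0.47 (edgeR adjusted p = 0.000624 and 0.000838). COLGALT1, which adds galactose to collagen, fell by 0.45 (edgeR adjusted p = 0.000116). Genes that act on the collagen chain thus moved in both directions while COL1A1 was lower.

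Of 13 laminin and basement membrane genes tested, 3 rose and 2 fell (median 0.58). HSPG2, the gene of perlecan, rose from 0.628 ± 0.200 to 3.34 ± 0.545 CPM (SD, n = 3; edgeR adjusted p = 0.00029). COL4A3 and COL4A4, which encode partner chains of type IV collagen and of which COL4A3 was at 0 in vector replicate 1, rose with log2 fold changes of 3.94 ± 0.70 and 1.61 ± 0.37 (SE; edgeR adjusted p = 0.00231 and 0.00793). The size of the COL4A3 difference is uncertain because of its low vector values. AGRN, the gene of agrin, fell from 48.3 ± 4.06 to 21.5 ± 0.618 CPM (edgeR adjusted p = 1.6e-05). LAMA5 had a log2 fold change of -1.29 ± 0.39 (edgeR adjusted p = 0.0262). It did not pass without overexpression replicate 1, vector replicate 1 or vector replicate 3 (-1.38, -1.25 and -1.26; edgeR adjusted p = 0.0616, 0.0658 and 0.0637), where 1 gene of the list fell.

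Of 27 receptors of matrix proteins tested, 9 rose and 10 fell (median -0.01), or 70.4% against 46.1% of all genes tested. ITGA4, a fibronectin and VCAM1 receptor subunit of lymphocytes, fell from 992 ± 39.6 to 469 ± 11.1 CPM, ITGA6, a laminin receptor subunit, from 45.9 ± 12.7 to 10.1 ± 0.977 CPM, and LAIR1, an inhibitory receptor of collagen, from 74.3 ± 12.7 to 30.9 ± 0.132 CPM (SD, n = 3; edgeR adjusted p = 2.78e-06, 8e-05 and 6.43e-05). The syndecan gene SDC2, the integrin gene ITGB5 and the collagen receptor subunit gene ITGA1 rose with log2 fold changes of 3.05 ± 0.32, 2.35 ± 0.32 and 1.13 ± 0.22 (SE; edgeR adjusted p = 0.000153, 0.000539 and 0.00372). In vector SDC2 held only 7, 16 and 16 estimated counts, in part under the floor, so the size of its difference is uncertain. The number of rises was 5 without overexpression replicate 2 or 3 or vector replicate 1 or 3, beside 8, 9, 9 and 10 falls in that order. Of the receptors of thrombospondin-1, CD47 held 26889 to 35658 estimated counts and did not pass (log2 fold change -0.19 ± 0.08, SE; edgeR adjusted p = 0.0957), and CD36 was at 0 in all 6 libraries.

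Of 19 matrix proteases and inhibitors tested, 4 rose and 4 fell (median -0.08), or 8 fell without vector replicate 2. The inhibitor gene SERPINE2 rose from 5.45 ± 0.538 to 13.2 ± 0.490 CPM and the protease gene MMP25 from 3.92 ± 0.668 to 10.2 ± 1.03 CPM (SD, n = 3; edgeR adjusted p = 0.00011 and 0.000363). ADAM10, a sheddase, fell from 309.7 ± 3.29 to 157.9 ± 6.28 CPM, and ADAMTS1, which cleaves proteoglycans, from 43.2 ± 2.21 to 28.2 ± 0.343 CPM (edgeR adjusted p = 3.95e-06 and 0.000128). MMP8 held 53, 56 and 37 estimated counts in overexpression and 5, 0 and 0 in vector (edgeR adjusted p = 0.00433). All 3 vector libraries lay under the floor of 12, so no fold is given. MMP17 was at 0 in overexpression and at 16, 35 and 25 in vector, which is at least 2.02-fold lower when set against the per-library floor (edgeR adjusted p = 0.00157).

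**Figure D3:**
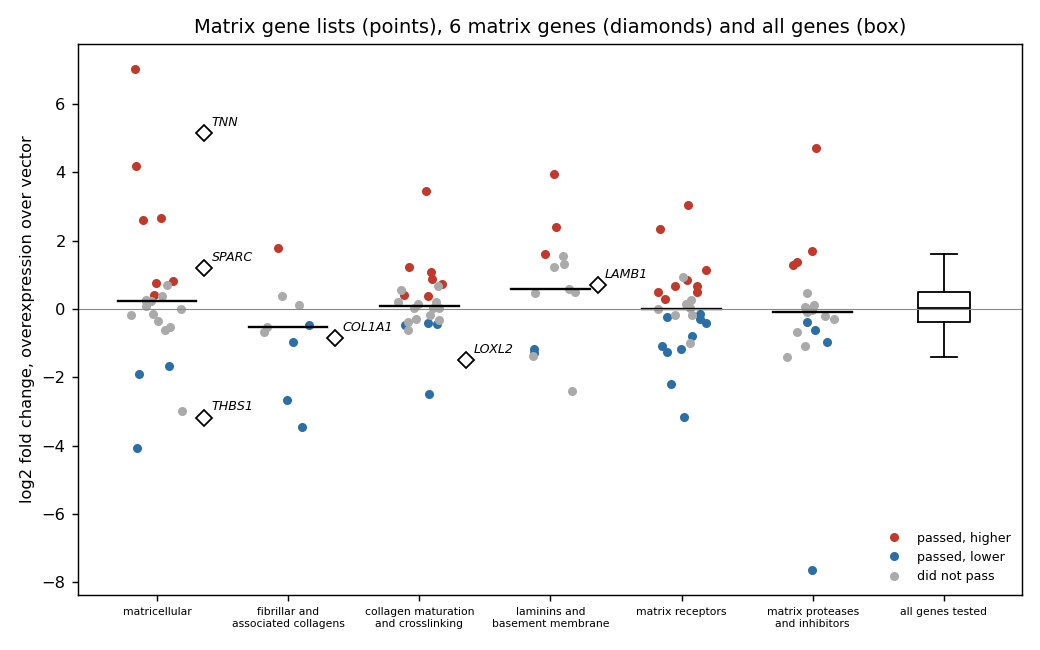
Fitted log2 fold change (vertical axis, overexpression over vector) of each tested gene of 6 matrix lists (points, coloured by edgeR call, line at the list median), of the 6 matrix genes (open diamonds, beside the list of their kind) and of all 21055 genes tested (box, quartiles with whiskers at the 5th and 95th percentiles). Each list holds genes on both sides of 0; the highest matricellular point (SMOC1) and the highest and lowest protease points (MMP8 and MMP17) have a group at 0 or under the floor, so their fitted height is no measured fold.

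The neighbouring genes on the chromosome were compared next, since position was not used in the choice. Of 31 tested coding genes, up to 3 on either side of each member within 1 Mb, 3 rose and 12 fell (median log2 fold change -0.22), where 22.6% of all genes tested were higher and 23.4% lower. Around THBS1 the log2 fold changes ran from -0.30 to 0.92, and around TNN from -0.64 to 0.03. The genes beside TNN, MRPS14 and KIAA0040, had log2 fold changes of 0.03 ± 0.09 and -0.58 ± 0.22 (SE) and did not pass (edgeR adjusted p = 0.83 and 0.065). KIAA0040 passed without vector replicate 2 (-0.80; edgeR adjusted p = 0.00292) and with DESeq2 (-0.60; adjusted p = 0.0178). FSIP1, which overlaps the annotated bounds of THBS1 on the opposite strand, was at 0.92 ± 0.43 and did not pass (edgeR adjusted p = 0.116), but passed without vector replicate 3 (1.53; edgeR adjusted p = 0.0121).

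Beside LOXL2, R3HCC1 was at -0.06 ± 0.07 and ENTPD4, a nucleotidase gene that overlaps it in GENCODE 29, at -0.32 ± 0.09 (SE; edgeR adjusted p = 0.487 and 0.0189). ENTPD4 did not pass without overexpression replicate 2 or 3 or vector replicate 1 or 3 (-0.31, -0.30, -0.26 and -0.28; edgeR adjusted p = 0.0665, 0.0712, 0.0615 and 0.0588). Among the 6 genes around LOXL2, 4 fell and 1 rose. The nearest genes to COL1A1 were PPP1R9B, which fell by 0.38 (edgeR adjusted p = 0.000214), and XYLT2, which did not pass (-0.19; edgeR adjusted p = 0.0548) but passed without vector replicate 2 (-0.24; edgeR adjusted p = 0.0104) and with DESeq2 (-0.21; adjusted p = 0.0377). The nearest to SPARC were FAT2 and ATOX1, at 0.78 ± 0.42 and 0.13 ± 0.13 (SE; edgeR adjusted p = 0.162 and 0.474). FAT2 passed without overexpression replicate 2 (1.15; edgeR adjusted p = 0.0146). The nearest to LAMB1 were DLD and PNPLA8, the latter at 0.04 ± 0.09 (edgeR adjusted p = 0.759); DLD passed without vector replicate 2 (-0.13; edgeR adjusted p = 0.0131).

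**Figure D4:**
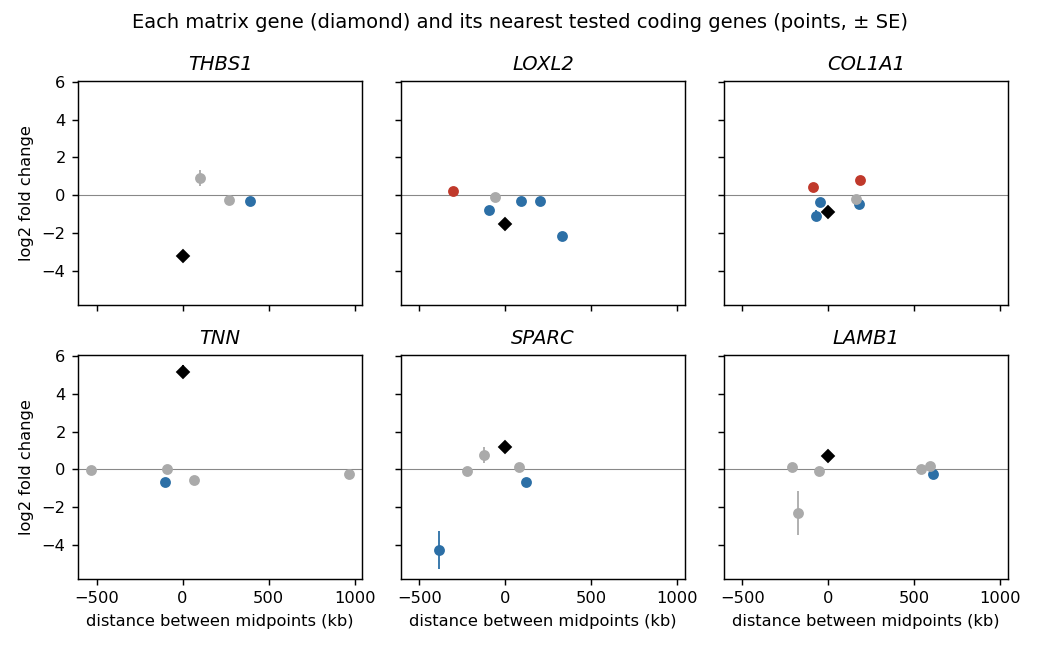
Fitted log2 fold change with SE (vertical axis, overexpression over vector) of each matrix gene (black diamond) and of its nearest tested coding genes (points: red passed and higher, blue passed and lower, grey did not pass), against the distance between gene midpoints in kb. TNN at 5.16 and THBS1 at -3.18 lie far from the genes around them. Both were picked from this contrast, so nothing is read from that distance.

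The genes whose log2 level followed each member most closely over the 6 libraries were taken by Pearson's r among 12669 genes averaging 100 or more estimated counts. They were ATAD3B, BPTF and MIR1244-2 for THBS1 (r of at least 0.999), BTG1, LZIC and THAP12 for LOXL2 (0.999), and ABHD3, CYBA and TMIGD2 for COL1A1 (0.996 to 0.998). For the higher genes they were ROBO3, GAS5 and MRPL54 for TNN (at least 0.999), RPL37, VANGL1 and TMEM39B for SPARC (0.998 to 0.9995), and SLC9A7, NDUFA4L2 and WWP2 for LAMB1 (0.999). Such values are common here, since 6 points in 2 separated groups give a high r to many genes that differ between the groups in the same direction. The r was above 0.95 with 728 genes for SPARC and with 2040 for LOXL2.

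Markers of other cell types were read beside these levels. A marker is counted as above the floor if any library held more than 12 estimated counts. The platelet marker GP1BB did so through vector replicate 2 alone (115). The endothelial TIE1 did so through vector replicate 1 alone (13), and the epithelial KRT18 through overexpression replicate 2 alone (13). All 13 T-cell markers were above the floor, with summed levels of 2905 to 2953 CPM in overexpression and 3016 to 3235 in vector. Of these markers 8 fell and 2 rose, or 76.9%, against 46.1% of all genes tested. The sum hides larger falls of single markers, such as CD2 from 25.6 ± 1.71 to 4.32 ± 0.312 CPM and CD7 from 74.4 ± 8.36 to 17.5 ± 1.01 CPM (SD, n = 3). Of 12 fibroblast and stromal markers, 3 were above the floor, and COL1A2, DCN, LUM, FAP, DPT, FBLN1 and PDPN were at 0 in all libraries. Their sum was 35.6 to 37.9 CPM in overexpression and 31.3 to 37.8 in vector, most of it THY1 (30.1 and 30.7 CPM on average). ACTA2 rose from 3.23 ± 0.381 to 5.68 ± 0.431 CPM (SD, n = 3; edgeR adjusted p = 0.00418), and PDGFRB, at 0.315 ± 0.179 and 0.709 ± 0.186 CPM, did not pass (edgeR adjusted p = 0.0831). Of 9 platelet markers 6 were above the floor (12.04 to 14.1 against 10.5 to 11.9 CPM), with PF4 and GP9 at 0, and of 10 endothelial markers 5 (2.93 to 3.91 against 6.06 to 7.71 CPM), with CDH5 and KDR at 0. Of 11 epithelial and kidney-line markers 4 were above the floor (1.14 to 2.06 against 0.799 to 1.18 CPM), with EPCAM at 0, and of 9 myeloid markers 3 (1.05 to 1.24 against 1.33 to 2.06 CPM), with S100A8 at 0. The part of these cells in the differences of the 6 genes was not tested.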

How the data were processed

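RNA was sequenced from 3 overexpression and 3 vector libraries of Jurkat cells. The deposited table holds expected counts (estimated counts, whole numbers, unscaled) per gene symbol. The submitters' processing notes list the build hg38, DESeq2, StringTie, STAR 2.7.10a and fastp 0.23.2; annotation release and strand setting are not given in the sources used here. Genes were filtered by edgeR's default (minimum count 10), scaled by TMM and tested with edgeR 4.0.16 (R 4.3.3) by the quasi-likelihood F test, group as the only term, with Benjamini-Hochberg adjustment over all 21055 genes and a threshold of 0.05. SEs were derived from the F statistic. The test was tested on simulated data. DESeq2 1.42.0, limma-voom (limma 3.58.1), other scaling and filters, division by 4, a replicate block and leaving out each library were alternatives.

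The members and lists were chosen with earlier results of these data known. Named are the 6 members, PDCD1, up to 3 risen and 3 fallen genes of smallest adjusted p per list, the nearest tested coding gene on either side, and the 3 genes of highest r per member, computed on log2(CPM + 0.5). Relatives and partner chains of the members were added after their values were seen. GENCODE 29 (GRCh38, which is hg38) gave gene positions; RefSeq on GRCh38.p14 gave neighbour order and promoters. Floors cover counting error only. Figures were drawn with matplotlib 3.10.9.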

Additional observations from a re-analysis of the deposited data

How the results depend on the processing

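For all 6 matrix genes the direction was the same under each alternative run, and each fitted log2 fold change moved by less than the replicate SD. With one library left out, the ranges were -3.40 to -2.95 for THBS1, -1.62 to -1.41 for LOXL2, -0.95 to -0.74 for COL1A1, 4.91 to 5.64 for TNN, 1.02 to 1.52 for SPARC and 0.64 to 0.72 for LAMB1. Over all genes, 3741 to 5292 were higher and 4175 to 5576 lower; a size threshold of 2-fold left 1766 and 1310. With upper-quartile factors the split was 5318 higher to 4421 lower. Keeping only genes that average 1 CPM and 50 estimated counts or more, 4 matricellular genes and 2 proteases or inhibitors rose and 2 fibrillar and associated collagen genes fell. With one library left out, 5 to 7 matricellular genes rose and 3 to 4 fell, 1 to 3 fibrillar and associated collagen genes rose and 2 to 5 fell, 6 to 10 collagen maturation genes rose and 3 to 4 fell, and 3 to 4 basement membrane genes rose and 1 to 3 fell. The ranges were 5 to 10 and 8 to 13 for receptors, 3 to 5 and 3 to 8 for proteases and inhibitors, and 23 to 39 and 24 to 35 for all lists together. Signs turned for PNPLA8 without overexpression replicate 2 (-0.0037) or vector replicate 2 (-0.0333) and for MRPS14 without vector replicate 3 (-0.0697), neither of which passed; with one library left out their highest values were 0.104 and 0.1027. With limma-voom, COL12A1 was at -4.37 and COL4A3 at 4.87. With DESeq2 size factors in edgeR, XYLT2 passed (adjusted p = 0.0454). The causes of these moves were not tested.

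Deviations of same-numbered libraries from their group means had correlations of 0.00739, 0.0106 and 0.0125 over 13973 genes. Those of differently numbered libraries ran from -0.0108 to -0.00184. All were small, and with 3 libraries per group they cannot settle whether the numbers pair the libraries. With the replicate number as a block, 4217 genes were higher and 4473 lower. Vector values of TNN near the floor limit the size of its difference.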
